A study of Homo sapiens with 18 samples.

Results

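The genes described here are 10 enzymes of serine, glycine, one-carbon and proline synthesis: PHGDH, PSAT1, PSPH, SHMT1, SHMT2, MTHFD2, MTHFD1L, ALDH1L2, PYCR1 and ALDH18A1. They were chosen as a pathway by name, with earlier results of these data known, and each matched 1 of the 26475 gene symbols in the count table. RNA-seq was done on human uveal melanoma cells of 2 established lines (MP41 and Mel92.1) that had been kept for 48 h with the vehicle DMSO, with 1 μM UNC0642 or with 1 μM A366. UNC0642 and A366 are both inhibitors of the histone H3 lysine 9 methyltransferases EHMT2 (G9a) and EHMT1 (GLP). Each of the 6 groups held 3 replicates, which the series calls biological, and all cells were grown in RPMI medium with serum, so every DMSO group carried the vehicle and neither line carried an engineered allele.

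Of the 18 libraries, 4 went against their labels, namely those labelled A366 replicates 2 and 3 of either line. Their rank correlation with the DMSO libraries was 0.827 to 0.850 for the labelled line and 0.964 to 0.996 for the other line, whereas the other 14 libraries reached 0.974 to 0.999 with their own line and 0.815 to 0.848 with the other. A supplementary dataset of the study also lists these 4 under the other line. They were therefore exchanged between the lines here, so that "MP41 A366 replicate 2" is the library labelled Mel92.1 A366 replicate 2, and A366 values are also given as labelled and without the 4 libraries. The libraries held between 23601156 and 62941462 counts (median 41955693), and 3.31% to 32.8% of them fell on ribosomal RNA genes. The highest share and the lowest total were both in Mel92.1 UNC0642 replicate 1. Of 12 melanocyte lineage genes, 11 averaged at least 1 CPM (counts scaled to the effective library size) in each line, with S100B under that level in Mel92.1 and OCA2 in MP41. The epithelial markers EPCAM, KRT5, KRT14 and CDH1 together stayed at or under 2.01 CPM in every library, and the endothelial markers PECAM1, CDH5 and VWF at or under 3.14 CPM. Of the leukocyte markers, CD68 was at 131.1 to 182.2 CPM in MP41 and at 25.9 to 35.8 CPM in Mel92.1, with PTPRC and CD3E under 1 CPM. Of the fibroblast markers COL1A1 alone was above 1 CPM, in a sum with COL1A2, DCN and PDGFRB of 8.04 to 22.7 CPM. The part of other cell types in the results was not tested.

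Serine is made from the glycolytic intermediate 3-phosphoglycerate in a short chain of reactions in the cytosol. Serine then passes a carbon unit to folate while it is converted to glycine, and the folate cycles of mitochondria and cytosol carry these units into purines, thymidylate and methionine. Proline is made from glutamate in the mitochondria, and the genes of both routes are known targets of the stress-responsive transcription factor ATF4. G9a has been described as sustaining serine synthesis in other tumor cells.

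PHGDH oxidizes 3-phosphoglycerate in the committed step of serine synthesis, PSAT1 transfers an amino group to its product, and PSPH removes the phosphate to give serine. SHMT1 in the cytosol and SHMT2 in mitochondria convert serine to glycine and load folate with a carbon unit. MTHFD2, MTHFD1L and ALDH1L2 are mitochondrial enzymes that oxidize this unit, release it as formate or burn it to carbon dioxide. ALDH18A1 makes the semialdehyde precursor of proline from glutamate, and PYCR1 carries out the last reduction to proline.

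With DMSO alone, Mel92.1 and MP41 differed in which of these enzymes they expressed. PHGDH was the widest gap: MP41 held 119.7, 129.6 and 128.1 CPM in its 3 DMSO libraries, and Mel92.1 held 0.205, 0.106 and 0.155 CPM, which were only 10, 4 and 6 counts. The difference was -9.62 on the log2 scale (Mel92.1 minus MP41, SE 0.21, edgeR quasi-likelihood test over 18 libraries, adjusted p = 2.07e-16). ALDH1L2 showed the opposite pattern, with 3.81, 2.08 and 3.04 CPM in Mel92.1 and 0.0649, 0.0929 and 0.239 CPM in MP41 (log2 difference 4.49, SE 0.49, adjusted p = 3.07e-07). Thus each line was close to 0 for 1 enzyme of the set, the entry step of serine synthesis in Mel92.1 and a mitochondrial formyl-folate dehydrogenase in MP41. PHGDH passed the expression filter only through libraries other than Mel92.1 DMSO, and ALDH1L2 only through Mel92.1 libraries. Their adjusted p-values are therefore no support, and the levels are given as a description.

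Of the 10 genes, 7 passed an adjusted p of 0.05 between the lines, where 69.4% of the 15799 genes tested did, so the count by itself is near the background. Of the 7, 5 were higher in Mel92.1 (34.5% of all genes) and 2 were lower (34.8%). The 7 include ALDH1L2 and PHGDH, with the limit of the expression filter given above. Higher in Mel92.1 were PSAT1 (log2 difference 1.43, SE 0.07), PYCR1 (1.01, SE 0.09), ALDH18A1 (0.79, SE 0.07) and MTHFD1L (0.63, SE 0.06), besides ALDH1L2. SHMT1 was lower in Mel92.1, at 44.7 to 51.9 CPM against 83.0 to 85.6 CPM (log2 difference -0.78, SE 0.10). All 7 had DMSO replicates that did not overlap between lines, as 77.4% of all genes did. PSPH (0.04, 95% interval -0.36 to 0.44), SHMT2 (-0.01, -0.16 to 0.14) and MTHFD2 (-0.11, -0.25 to 0.03) did not pass. The culture methods give more serum for MP41 than for Mel92.1 while the sample labels give 1 share for both, so line and medium cannot be told apart here.

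Per kilobase of the longest coding transcript, the order of levels also differed. In MP41 with DMSO, SHMT2 led at 93.7 CPM per kilobase (SD 1.80, n = 3), followed by PYCR1 at 57.9 (SD 0.713), PHGDH at 48.7 (SD 2.06), SHMT1 at 34.2 (SD 0.546), PSAT1 at 28.4 (SD 1.79), MTHFD2 at 23.5 (SD 1.08) and ALDH18A1 at 19.0 (SD 0.340). PSPH at 9.75 (SD 1.09) and MTHFD1L at 9.14 (SD 0.266) had overlapping replicates, and ALDH1L2 came last at 0.0175. In Mel92.1, PYCR1 led at 116.9 (SD 12.2), then SHMT2 at 93.1 (SD 7.75) and PSAT1 at 76.6 (SD 2.87). ALDH18A1 followed at 32.8 (SD 1.49), MTHFD2 at 21.8 (SD 1.11) and SHMT1 at 19.9 (SD 1.53), of which the last pair had overlapping replicates. MTHFD1L (14.1), PSPH (10.0), ALDH1L2 (0.394) and PHGDH (0.0600) closed the order. These levels assume the longest transcript, which may not be the one the cells used.

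**Figure D1:**
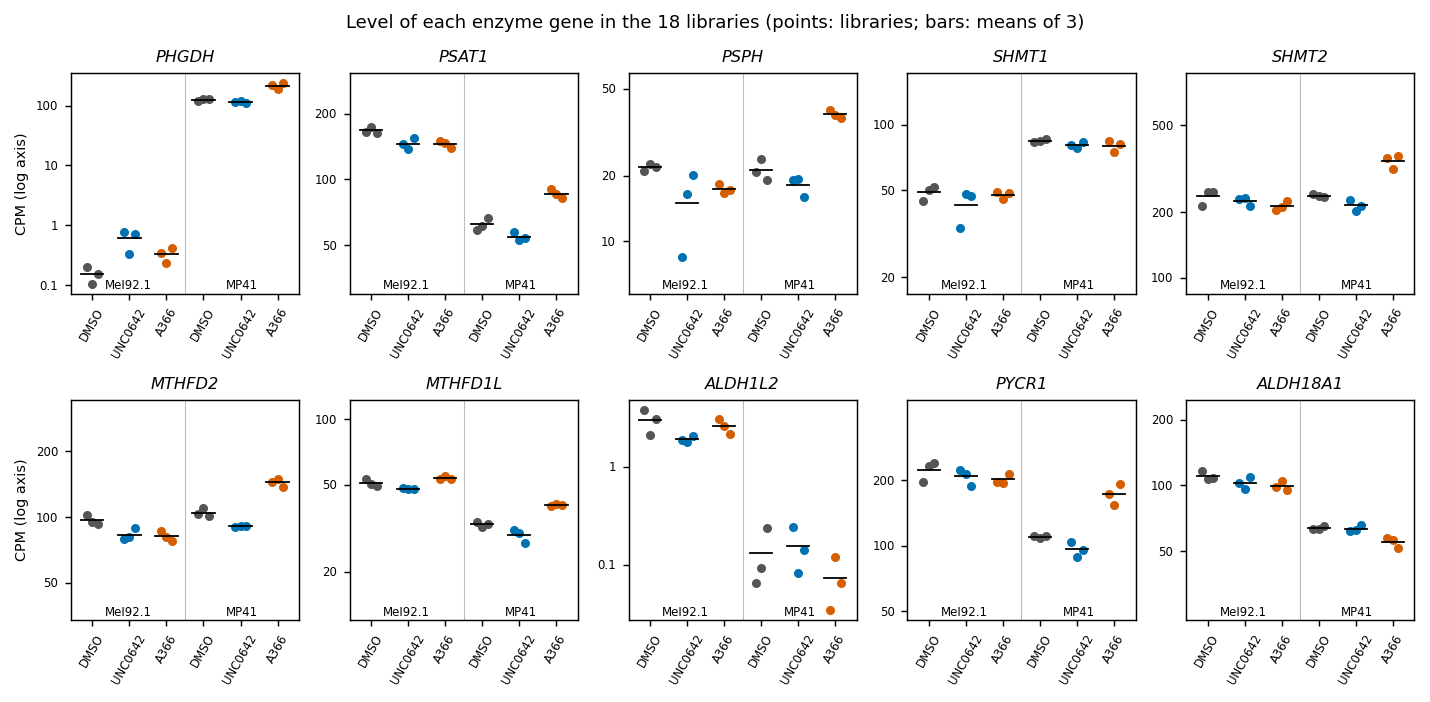
CPM of each of the 10 genes (log axis) in the 18 libraries, by cell line and treatment, where points are libraries and bars are means of 3. PHGDH lies at 0.106 to 0.790 CPM in Mel92.1 and at 111.0 to 235.6 CPM in MP41, and 7 genes have their 3 MP41 A366 points above the 3 MP41 DMSO points.

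In MP41, A366 raised most of the set. Of the 9 genes tested, 7 rose, 1 fell and 1 did not pass, where 46.0% of the 14956 genes tested passed, 22.5% as higher and 23.5% as lower. ALDH1L2 was below the expression filter in MP41, with 2 to 11 counts per library, and was not tested there. The median log2 change of the 9 was 0.444, and that of all genes tested was 0.020.

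All 3 serine synthesis genes rose with A366 in MP41. PHGDH went from 119.7, 129.6 and 128.1 CPM with DMSO to 220.5, 185.5 and 235.6 CPM (log2 fold change 0.74, SE 0.08, edgeR adjusted p = 0.000164). PSPH went from 20.8, 23.8 and 19.1 CPM to 40.0, 37.8 and 36.9 CPM, which was the largest change of the set without a GC and length offset (0.82, SE 0.10, adjusted p = 0.000255). PSAT1 went from 58.7, 61.4 and 66.4 CPM to 90.4, 85.4 and 82.3 CPM (0.44, SE 0.07, adjusted p = 0.000749). For each of the 3, the lowest A366 library was above the highest DMSO library.

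The mitochondrial one-carbon enzymes that were tested rose as well, and the cytosolic SHMT1 did not pass. SHMT2 had 242.8, 236.4 and 233.9 CPM with DMSO and 354.9, 314.4 and 359.5 CPM with A366 (0.50, SE 0.07, adjusted p = 0.000379). MTHFD2 had 103.0, 110.1 and 101.0 CPM with DMSO and 144.8, 150.0 and 137.8 CPM with A366 (0.44, SE 0.06, adjusted p = 0.000535). MTHFD1L had 33.8, 31.9 and 33.1 CPM and then 40.1, 40.6 and 40.5 CPM (0.27, SE 0.07, adjusted p = 0.00884). SHMT1, the cytosolic counterpart of SHMT2, had overlapping groups at 83.0 to 85.6 CPM with DMSO and 74.7 to 83.6 CPM with A366 (-0.10, 95% interval -0.24 to 0.04).

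The proline enzymes moved in opposite directions. PYCR1 rose from 111.2, 108.7 and 110.8 CPM to 172.9, 154.1 and 192.1 CPM (0.63, SE 0.08, adjusted p = 0.000382). ALDH18A1, 1 step earlier in the same route, fell from 63.3, 63.1 and 65.2 CPM to 57.4, 56.4 and 51.4 CPM (-0.24, SE 0.07, adjusted p = 0.0119, and 0.0518 without DMSO replicate 3). In both genes the groups did not overlap. Over the 9 genes, 8 had A366 and DMSO replicates that did not overlap, where 58.0% of all genes tested did not.

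**Figure D2:**
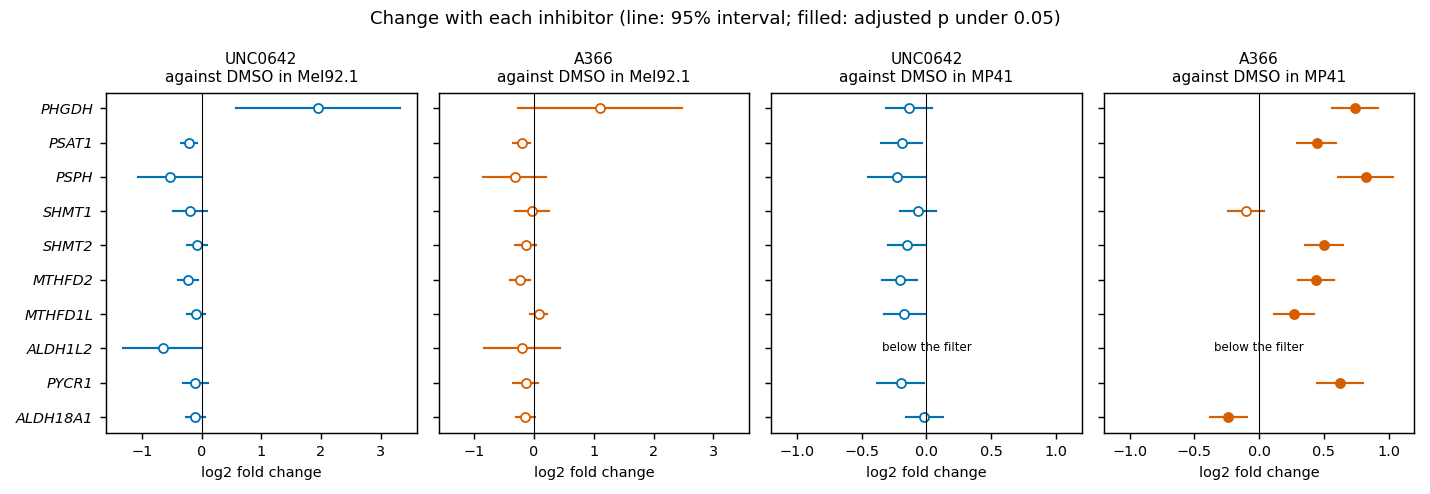
Log2 fold change of each gene against DMSO (x axis, with a wider range for Mel92.1) for the 2 inhibitors in the 2 lines, with 95% intervals and filled points for an adjusted p under 0.05. Filled points are found only for A366 in MP41, where 7 lie above 0 and ALDH18A1 lies at -0.24.

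These A366 values in MP41 changed with the settings of the fits. Across 14455 genes, the log2 change had a rank correlation of 0.459 with the GC content and -0.473 with the length of the transcript, as a description across genes. The cause of this trend was not tested. With an offset for both, all 9 genes passed, 7 higher and 2 lower, where 35.4% of all genes did. PYCR1, at the 90.4th percentile of GC content, then changed by 0.20 (SE 0.06), SHMT2 by 0.32 (SE 0.05) and MTHFD1L by 0.16 (SE 0.06), while MTHFD2, at the 21.9th percentile, changed by 0.63 (SE 0.05). SHMT1 passed as lower at -0.30 (SE 0.05), and PHGDH (0.59), PSPH (0.59), PSAT1 (0.39) and ALDH18A1 (-0.32) stayed past the threshold. Without the 4 libraries, which leaves 1 A366 library per line that is assumed to vary like the other groups, 6 of 10 genes passed (35.7% of all genes), and MTHFD1L (0.24, adjusted p = 0.0664) and ALDH18A1 (-0.20, adjusted p = 0.0558) did not. With the libraries as labelled, 3 of 10 passed, where 32.8% of all genes did (PSAT1 1.03, PYCR1 0.83 and MTHFD1L 0.60), and PHGDH took -0.80 (SE 1.74), where the 3 libraries of that group held 12743, 11 and 21 counts.

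**Figure D3:**
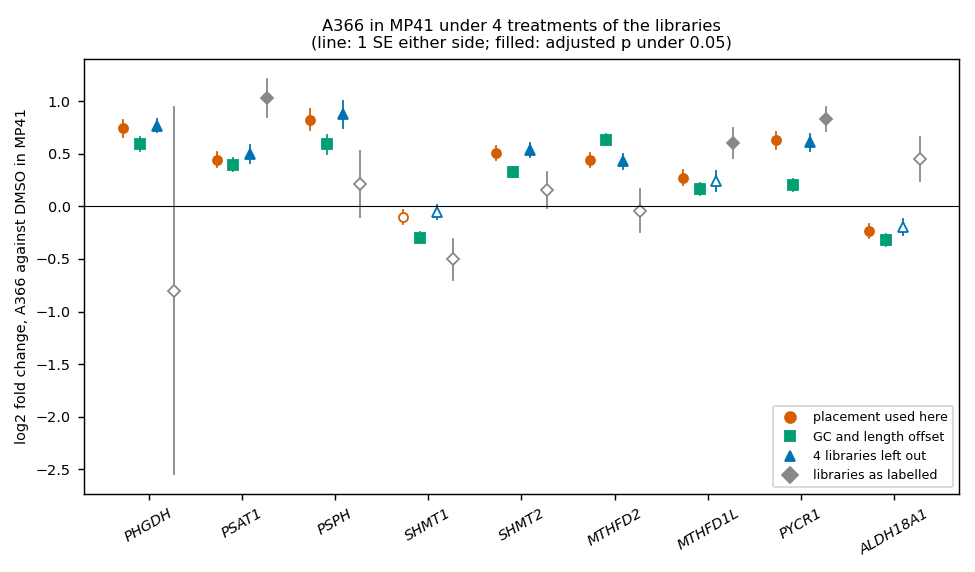
Log2 fold change with A366 against DMSO in MP41 (y axis) for the 9 tested genes under 4 treatments of the libraries, with 1 SE either side and filled symbols for an adjusted p under 0.05. PHGDH, PSAT1, PSPH, SHMT2, MTHFD2 and PYCR1 are above 0 and filled in the 3 treatments other than the labelled one.

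With UNC0642, at the same dose and time, the MP41 estimates lay below 0 instead. Of the 9 genes tested, 0 passed by edgeR's test, where 0.241% of all genes did, and 0 passed by DESeq2 or by limma voom with sample quality weights. All 9 estimates were negative, from -0.23 for PSPH to -0.02 for ALDH18A1, with a median of -0.171 against 0.001 over all genes, of which 49.6% were negative. At an unadjusted p under 0.05, 6 of the 9 were lower, where 4.15% of all genes were. That number was 1 without UNC0642 replicate 3, 2 without DMSO replicate 1 or 3, 3 without DMSO replicate 2, UNC0642 replicate 2 or A366 replicate 1, and 0 as labelled. PHGDH had 115.2, 118.2 and 111.0 CPM, each under the lowest DMSO library (-0.14, 95% interval -0.31 to 0.04). MTHFD2 had 90.4, 91.5 and 90.8 CPM against at least 101.0 CPM with DMSO (-0.21, -0.35 to -0.07). In 6 of the 9 genes, every UNC0642 library was lower than every DMSO library, where 9.29% of all genes had that pattern. The comparisons of the 2 inhibitors with DMSO share the DMSO libraries.

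Set against each other in MP41, A366 was higher than UNC0642 for 7 of the 9 genes and lower for ALDH18A1, where 43.1% of all genes passed, 21.1% as higher with A366 and 22.0% as lower. The log2 differences were 1.06 for PSPH (SE 0.10), 0.88 for PHGDH (SE 0.08), 0.83 for PYCR1 (SE 0.08), 0.65 for SHMT2 (SE 0.07), 0.65 for MTHFD2 (SE 0.06), 0.64 for PSAT1 (SE 0.07) and 0.44 for MTHFD1L (SE 0.07). Their adjusted p ran from 4.22e-05 for PHGDH to 0.000769 for MTHFD1L. ALDH18A1 differed by -0.22 (SE 0.07, adjusted p = 0.0181), although it did not pass when the DMSO libraries were left out of the fit (adjusted p = 0.0558), and SHMT1 by -0.03 (95% interval -0.17 to 0.11). Without the 4 libraries, 7 of 10 passed, all higher with A366, where 34.4% of all genes passed, and with the libraries as labelled, 3 did, where 31.0% passed. In Mel92.1, 0 of 10 genes passed between A366 and UNC0642 by edgeR, by DESeq2 or by voom, where 0.165% of all genes passed by edgeR, and 1 had an unadjusted p under 0.05 (MTHFD1L, 0.17, SE 0.07), which none did without any 1 of the A366 libraries or without UNC0642 replicate 2 or 3.

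In Mel92.1, neither inhibitor moved a gene of the set past the threshold, and most estimates were below 0. With UNC0642, 0 of 10 passed where 0.688% of all genes did, and 3 had an unadjusted p under 0.05 (9.93% of all genes). Of these 3, PHGDH was higher and passed the expression filter only through the inhibitor libraries. Estimates were negative for 9 of 10 members and 54.4% of all genes (median -0.147, against -0.022 over all genes). With the GC and length offset the median was -0.014, against 0.110 over all genes, and SHMT2, MTHFD1L, PYCR1 and ALDH18A1 turned positive. DESeq2 and voom each called PSAT1 alone. With A366, 0 of 10 passed where 0.213% of all genes did, and 2 had an unadjusted p under 0.05 (4.32% of all genes). Estimates were negative for 8 of 10 members and 51.7% of all genes (median -0.144, against -0.005, and with the offset -0.156 against -0.022). DESeq2 called 0. Every inhibitor library was lower than every DMSO library for 5 of 10 genes with UNC0642 and for 4 of 10 with A366, where 8.03% and 7.23% of all genes had that pattern.

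PSAT1 and MTHFD2 had an unadjusted p under 0.05 with both inhibitors in Mel92.1. PSAT1 had 165.4, 174.5 and 162.5 CPM with DMSO, 145.0, 137.0 and 154.0 CPM with UNC0642 (-0.21, SE 0.06, adjusted p = 0.284) and 149.8, 146.8 and 138.6 CPM with A366 (-0.21, SE 0.06, adjusted p = 0.556). MTHFD2 had 102.6, 94.8 and 93.4 CPM with DMSO, 79.2, 80.7 and 88.9 CPM with UNC0642 (-0.23, SE 0.08, adjusted p = 0.336) and 86.8, 81.3 and 77.8 CPM with A366 (-0.24, SE 0.07, adjusted p = 0.580). Neither gene had an inhibitor library as high as its lowest DMSO library. With sample quality weights in limma voom, 6 of the 10 genes passed for A366 in Mel92.1, where 21.2% of all genes passed in that fit. Of these, 5 were lower (PSAT1, PSPH, SHMT2, MTHFD2 and PYCR1) and PHGDH was higher, and edgeR called 0 of the 10. PHGDH had 14, 11 and 21 counts with A366 and 10, 4 and 6 with DMSO. It passed the expression filter only through the inhibitor libraries, so its call is no support for a rise.

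PSPH, SHMT1 and ALDH1L2 varied more in Mel92.1. PSPH had 8.44 CPM in UNC0642 replicate 1, against 16.4 and 20.1 CPM in the other two and 20.9, 22.7 and 21.9 CPM with DMSO (-0.52, 95% interval -1.06 to 0.01). That library was the shallowest, with 32.8% of its counts on ribosomal RNA genes, and without it PSPH changed by -0.26 (SE 0.10, adjusted p = 0.383). SHMT1 was also lowest there, at 33.7 CPM against 44.7 to 51.9 CPM with DMSO, and without it changed by -0.05 (SE 0.08). ALDH1L2 had 1.88, 1.79 and 2.03 CPM with UNC0642, under its DMSO range (-0.65, 95% interval -1.31 to 0.00), and 3.02, 2.59 and 2.17 CPM with A366 (-0.20, -0.84 to 0.44). SHMT2, MTHFD1L, PYCR1 and ALDH18A1 stayed within -0.14 and 0.08 with either inhibitor.

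PHGDH had estimates above 0 with both inhibitors in Mel92.1, at a level close to absence. It had 0.790, 0.333 and 0.731 CPM with UNC0642 (13, 13 and 39 counts) and 0.341, 0.240 and 0.426 CPM with A366 (14, 11 and 21 counts), all above the DMSO libraries. PHGDH thus changed by 1.95 with UNC0642 (SE 0.61, adjusted p = 0.309) and by 1.10 with A366 (SE 0.61, adjusted p = 1.00) on the log2 scale, and the gene passed the expression filter only through the inhibitor libraries. The UNC0642 mean was 0.618 CPM, against 125.8 CPM in MP41 with DMSO. A set of 33 other genes was at 20 CPM or more in MP41 and at 0.05 CPM or less in Mel92.1 with DMSO. Their summed level was 0.0147% to 0.0297% of the MP41 level with DMSO, which the choice of genes made low. It was 0.387%, 0.0703% and 0.107% with UNC0642, and 0.0557% to 0.0677% with A366, and the higher sums could follow from that choice alone. PHGDH took 0.628%, 0.264% and 0.581% of its MP41 level in the same UNC0642 libraries, and 0.271%, 0.191% and 0.339% in the A366 libraries. The part of RNA from the other line in the PHGDH value was not tested.

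Tested in 1 fit of the 18 libraries, the response to A366 differed between the lines for 5 of the 10 genes, where 13.8% of 15799 genes passed and 8.67% had the lower change in Mel92.1. For each of these 5 genes the change was lower in Mel92.1 than in MP41: PSPH by -1.18 (SE 0.27, adjusted p = 0.0115), PYCR1 by -0.79 (SE 0.13, adjusted p = 0.00156), MTHFD2 by -0.70 (SE 0.09, adjusted p = 0.000303), PSAT1 by -0.68 (SE 0.09, adjusted p = 0.000510) and SHMT2 by -0.67 (SE 0.10, adjusted p = 0.000956). MTHFD1L did not pass by edgeR (-0.22, SE 0.09, adjusted p = 0.106), although it did by DESeq2 and voom, nor did PHGDH (0.32, 95% interval -0.56 to 1.19), whose level in Mel92.1 leaves a wide interval. SHMT1, ALDH18A1 and ALDH1L2 did not pass either. With the GC and length offset 3 of the 5 passed (PSAT1, PSPH and MTHFD2), where 1.37% of all genes did, and without the 4 libraries 4 did (not PSPH), where 1.24% did. As labelled, 7 of 10 genes passed, where 49.4% did, PHGDH and SHMT1 among them with the higher change in Mel92.1.

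In the response to UNC0642, PHGDH alone passed between the lines (2.04, SE 0.38, adjusted p = 0.0131), where 0.601% of all genes did. With 4 to 10 counts in the Mel92.1 DMSO libraries, this value is given as a description and not as a line difference. The call also rested on single Mel92.1 libraries: the adjusted p was 0.0650 without DMSO replicate 2, 0.0561 without DMSO replicate 3 and 0.113 without UNC0642 replicate 3. For the 6 genes other than PHGDH, PSPH, SHMT1 and ALDH1L2, the difference lay between -0.09 and 0.09.

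By edgeR, the genes of the 7 pathway lists showed mixed directions with A366 in MP41 and few calls in the other comparisons with DMSO. With UNC0642, 0 of 89 genes of 7 pathway lists passed by edgeR in Mel92.1 and 0 of 92 in MP41, where 0.688% and 0.241% of all genes did. In each line 11 had an unadjusted p under 0.05, where 1442 of 14528 and 1316 of 14956 of all genes did. DESeq2 called 2 and 3 (389 and 180 of all genes) and voom 3 and 0 (413 and 154). With A366 in Mel92.1, MAT1A alone, a methionine adenosyltransferase, passed by edgeR (0.91, SE 0.12, adjusted p = 0.0169), where 0.213% of all genes did. DESeq2 called 2 of the 89, where 170 of 14528 genes passed. By voom 20 of the 89 passed, which is near the 21.2% of all genes that did. No gene of the methionine list passed there with the GC and length offset, without the 4 libraries or as labelled. With A366 in MP41, 27 of the 92 genes rose and 24 fell, and the counts below are read against the 22.5% and 23.5% of all genes that did. Counts with the GC and length offset are read against 2136 higher and 3152 lower of 14956 genes. Counts as labelled are read against 2922 higher and 2029 lower of 15088 genes. With A366 in MP41, 3 of 11 other genes of serine and glycine use rose and 1 fell. SDSL, related to serine dehydratase, changed by 1.34 (SE 0.14), GLYCTK, a glycerate kinase, by 0.58 (SE 0.14) and GCAT, which splits threonine-derived 2-amino-3-ketobutyrate to glycine, by 0.55 (SE 0.11), while GLDC, the decarboxylase of the glycine cleavage system, changed by -0.66 (SE 0.20). The list median was 0.088. With the GC and length offset SDSL (0.85) and GLDC (-0.75) passed, and GLYCTK (0.20) and GCAT (0.08) did not, and without the 4 libraries GLDC did not (-0.56, adjusted p = 0.183).

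Of 16 genes of the folate cycle tested, 3 rose and 3 fell with A366 in MP41 (median 0.000), which is no more than the share over all genes. MTHFS, which recycles 5-formyltetrahydrofolate, changed by 0.51 (SE 0.08) and FPGS, which adds glutamate to folates, by 0.40 (SE 0.10), while MTR, methionine synthase, changed by -0.51 (SE 0.11) and its reductase MTRR by -0.44 (SE 0.09). Of 13 genes of purine synthesis, 1 rose and 5 fell (median -0.182), among them PPAT (-0.55, SE 0.10), GMPS (-0.36, SE 0.06) and PAICS (-0.34, SE 0.05), with IMPDH2 higher (0.33, SE 0.06). With the GC and length offset the folate list had 3 higher and 4 lower and the purine list 1 higher and 7 lower, but not all through the same genes: MTHFS (0.16), FPGS (0.01), GMPS (0.07), PAICS (-0.02) and IMPDH2 (-0.03) did not pass, and GMPS and IMPDH2 turned sign. As labelled, the purine list had 3 higher and 1 lower.

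Of 13 genes of the methionine cycle and transsulfuration, 3 rose and 7 fell with A366 in MP41 (median -0.222). The transsulfuration enzymes CTH (0.76, SE 0.13) and CBS (0.43, SE 0.08), which turn homocysteine and serine into cysteine, rose, and MAT2A (-0.45, SE 0.06) and AMD1 (-0.68, SE 0.07), which make and decarboxylate S-adenosylmethionine, fell. With the GC and length offset all 4 passed in the same direction, CBS at 0.16, and the list had 4 higher and 5 lower (median -0.036). Of 13 other genes of proline and ornithine use, 4 rose and 3 fell (median 0.047), including PEPD, which frees proline from dipeptides (0.55, SE 0.09), P4HA1, a prolyl hydroxylase (-0.47, SE 0.07), and GLUD1, glutamate dehydrogenase (-0.30, SE 0.06). Of 9 genes on the list of serine and glycine carriers, 4 rose and 1 fell (median 0.337). That list includes SLC25A1, a citrate carrier, which rose (0.35, SE 0.09). With the GC and length offset 4 genes of the list were higher and 3 lower (median 0.253). As labelled the median was 0.708. SLC1A5 (0.54, SE 0.07) and SLC1A4 (0.34, SE 0.06) import neutral amino acids, SLC25A38 (0.55, SE 0.10) carries glycine into mitochondria, and SFXN1 (-0.43, SE 0.06) carries serine into mitochondria.

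Of 17 genes on the list of regulators, 9 rose and 4 fell with A366 in MP41 (median 0.227), and with the GC and length offset 7 were higher and 4 lower (median 0.065). ATF4 had 231.4, 239.3 and 234.5 CPM with DMSO, 209.9, 225.1 and 211.5 CPM with UNC0642 and 365.3, 331.7 and 374.8 CPM with A366 (0.58, SE 0.06, adjusted p = 0.000116). In Mel92.1 it had 355.3, 407.4 and 407.5 CPM with DMSO and 325.6, 312.4 and 342.0 CPM with A366 (-0.25, SE 0.09, adjusted p = 0.707). ATF3 (1.80, SE 0.10), NUPR1 (1.71, SE 0.12), DDIT3 (1.30, SE 0.10) and TRIB3 (1.23, SE 0.09), stress-response factors downstream of ATF4, rose with A366 in MP41. With the GC and length offset ATF4 changed by 0.23 (SE 0.05, adjusted p = 0.00200) and these 4 by 0.91 to 1.78. MYC, another known activator of these enzymes, did not pass there (-0.12, SE 0.06, adjusted p = 0.0962), though it did with the offset (-0.39, SE 0.05). Among the targets of the inhibitors, EHMT2 mRNA was higher with A366 in MP41 (0.23, SE 0.06, adjusted p = 0.00936) but did not pass with the offset (0.06) or without the 4 libraries (0.19, adjusted p = 0.0513), and EHMT1 did not pass (-0.12, SE 0.08).

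Of 8 listed ATF4 stress targets, 7 rose and 1 fell with A366 in MP41 (median 1.211), the last being VLDLR (-0.39, SE 0.08). In the other 3 comparisons with DMSO none of the 8 passed as higher. With UNC0642 in Mel92.1, 4 passed as lower (median -0.647), with A366 in Mel92.1 3 (median -0.586), and with UNC0642 in MP41 2 (median -0.287). Of all genes, 0.688%, 0.213% and 0.241% passed there. With the GC and length offset 2, 2 and 3 were lower, where 63, 25 and 133 of all genes passed, and as labelled 0 in each. As labelled, the medians with A366 were 0.168 in MP41 and 0.798 in Mel92.1. Of these targets, CHAC1 and ASNS were higher in MP41 with A366 and had estimates below 0 in the other 3 comparisons with DMSO. CHAC1, which degrades glutathione, changed in Mel92.1 by -1.96 under UNC0642 and by -1.95 under A366, and in MP41 by -1.12 under UNC0642 and by 1.94 under A366, all past the threshold. Without the 4 libraries the changes in Mel92.1 did not pass (adjusted p = 0.0899 and 1.00). ASNS, asparagine synthetase, changed by -0.69, -0.42, -0.54 and 1.19 in the same order, of which the second did not pass (adjusted p = 0.334), nor the first without the 4 libraries (adjusted p = 0.130).

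**Figure D4:**
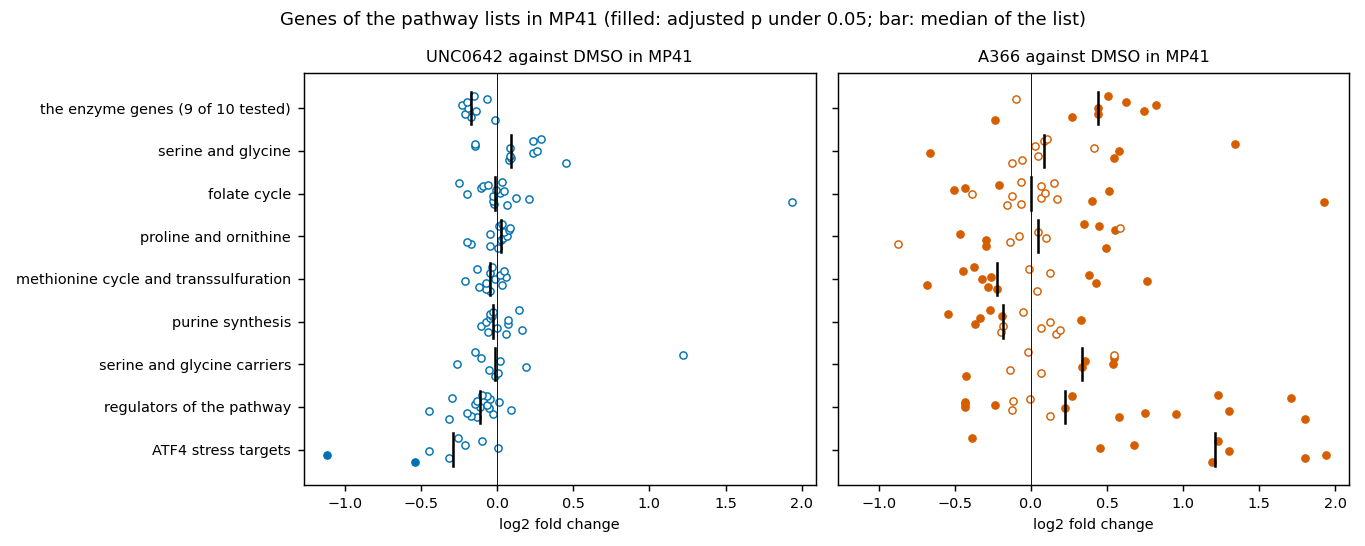
Log2 fold change against DMSO in MP41 (x axis) of the 9 tested enzyme genes and of each pathway list, for UNC0642 on the left and A366 on the right, where bars are list medians and filled points have an adjusted p under 0.05. With A366 the enzyme genes have a median of 0.444, and those of the methionine and purine lists are -0.222 and -0.182.

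Over the 18 libraries, with each line centred on its own mean, the gene whose log2 CPM followed the mean of the 10 genes most closely among 11919 genes was CTH (Pearson's r = 0.965), followed by ASNS (0.955), MMP14 (0.931), STK40 (0.919) and HERPUD1 (0.919). These correlations are a description, in which libraries of a group are not independent of each other. Within MP41 alone r ran from 0.952 to 0.988 for these 5 genes and within Mel92.1 from 0.620 to 0.925. For PHGDH alone the closest were DDX27 (0.904), PPCS (0.903) and CTSL (0.894), in which the Mel92.1 libraries held only 4 to 39 counts of PHGDH. Among the 10 genes themselves, the correlation with the mean of the other 9 within MP41 was 0.911 to 0.990 for PHGDH, PSAT1, PSPH, SHMT2, MTHFD2, MTHFD1L and PYCR1, -0.188 for SHMT1, -0.522 for ALDH1L2 and -0.852 for ALDH18A1. In Mel92.1 it was -0.813 for PHGDH, from those few counts, and 0.717 to 0.811 for PSAT1, PSPH and MTHFD2.

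Promoter windows of 250 bases before the annotated start were found for 6 of the 10 genes in the RefSeq table (GRCh38.p14): PHGDH, PSAT1, SHMT1, MTHFD2, MTHFD1L and ALDH18A1. PSPH, SHMT2, ALDH1L2 and PYCR1 had no entry. They are shown for PSAT1, which rose with A366 in MP41, and for ALDH18A1, which fell. Capitals mark the letters CCAAT, the E-box CACGTG and the half-site TGACGT, each on either strand.
PSAT1 (chr9:78296875-78297124, + strand): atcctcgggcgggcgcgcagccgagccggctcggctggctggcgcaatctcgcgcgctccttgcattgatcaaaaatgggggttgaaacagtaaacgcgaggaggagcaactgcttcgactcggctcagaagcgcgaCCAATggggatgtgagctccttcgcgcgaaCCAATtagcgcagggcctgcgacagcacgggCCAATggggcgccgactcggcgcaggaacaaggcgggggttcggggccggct
ALDH18A1 (chr10:95656712-95656961, - strand): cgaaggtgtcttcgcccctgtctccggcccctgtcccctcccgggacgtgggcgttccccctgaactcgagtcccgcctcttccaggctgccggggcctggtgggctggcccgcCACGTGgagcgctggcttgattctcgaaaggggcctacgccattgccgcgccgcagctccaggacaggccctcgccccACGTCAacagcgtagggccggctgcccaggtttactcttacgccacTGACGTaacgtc

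The letters CCAAT or their reverse complement ATTGG, the core of the NF-Y box, were present in the windows of 5 of the 6 genes, against 32.0% of 35116 windows in the table. PSAT1 held 3 copies, starting 113, 83 and 52 bases before its start, and ALDH18A1 held none. SHMT1, which did not pass with A366 in MP41 (-0.10, SE 0.06), held 2 copies, starting 76 and 25 bases before its start. MTHFD2 also held 2, starting 184 and 74 bases before its start. In PHGDH the copy lay 71 bases before the RefSeq start. Exons of other annotated transcripts cover 219 of the 250 bases of the PHGDH window and 249 of that of MTHFD2. They cover up to 55 bases of those of MTHFD1L. For these genes only the surroundings of a single copy are therefore given.
PHGDH (chr1:119711853-119711877, + strand): gtatttccgtCCAATcaaaaggaga
MTHFD2 (chr2:74198531-74198555, + strand): gcggcagggaCCAATgggtggcgga
MTHFD1L (chr6:150866283-150866307, + strand): gtgggcatctCCAATgggcgcctag
The pattern TGATGNAA or its reverse TTNCATCA, where C/EBP-ATF dimers that include ATF4 are known to bind, was in 3.14% of all windows and in those of 1 gene of the 6, MTHFD1L.
MTHFD1L (chr6:150866347-150866374, + strand): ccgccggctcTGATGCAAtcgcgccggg
CACGTG, the E-box bound by MYC, was in 6.34% of windows and in those of MTHFD1L and ALDH18A1, and TGACGT or ACGTCA was in 7.10% and in that of ALDH18A1, which held 2 copies. MTHFD1L has 4 annotated starts, and its matches to TGATGNAA and CACGTG lie before 2 of them. The PHGDH window held 11 CpG dinucleotides, equal to the median of all windows (11), and that of PSAT1 held 30. These matches describe letters only, and binding was not measured.

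Some counts may be shared between genes, which was not tested. PSAT1 has 4 annotated pseudogenes, MTHFD2 has 7, and PSPH and SHMT1 have 1 each, and SHMT1, SHMT2, MTHFD2, MTHFD1L, ALDH1L2 and PYCR1 overlap other annotated genes (GENCODE release 29, GRCh38), so reads could be divided between them. In these bulk libraries, fewer cells with a transcript and less RNA per cell cannot be told apart.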

How the data were processed

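The authors deposited 1 table of RSEM expected counts per gene symbol, not normalized for library size. Per the labels, the submitters' processing notes name Bowtie2 2.1.0, RSEM 1.2.15 and hg38, whereas the paper's methods name the mouse build mm10, TopHat and FPKM values. Oligo-dT selection with dUTP strand marking is described, while the series text names ribosomal RNA depletion. The strand setting of the counting is not given in the sources used here. All library columns were used.

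Expected counts were rounded to whole numbers. The 9 libraries of each line were fitted with edgeR 4.0.16 in R 4.3.3 (filterByExpr, TMM factors, quasi-likelihood F test), and all 18 in 1 fit for comparisons between lines. P-values were adjusted by Benjamini-Hochberg over all genes tested, with a threshold of 0.05. SE was the unshrunk log2 fold change divided by the root of F. CPM values carry TMM factors. Percentages given beside counts of members are shares of all genes tested. In the shallowest library (23601156 counts in total), the 13 counts of PHGDH were 0.790 CPM. Replicate numbers did not pair the samples. On data simulated with 200 genes changed by 1.5 on the log2 scale, the test recovered 197 for A366 in MP41 (17 false calls). For A366 in Mel92.1 it recovered 189 (11 false calls). The changed genes all had ample counts, their change was larger than that of any member in these comparisons, and no trend with GC content or length was simulated. The recovery thus does not apply to the smaller changes of the members or to genes near the floor.

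The 10 members, the pathway lists and the placement of the 4 libraries were chosen with earlier results of these data known. All 10 members were named, with up to 4 genes of each list past the threshold against DMSO, taken by lowest adjusted p, plus ATF4, MYC, EHMT1 and EHMT2, and the 5 genes closest to the members' mean and 3 closest to PHGDH. CHAC1, ASNS and MAT1A were added after their values were seen. Some genes of these lists and of the marker lists are not reported here. Alternatives were DESeq2 1.42.0, RLE factors, other filters, no ribosomal RNA genes, other sets of libraries, limma 3.58.1 voom with sample quality weights, a replicate block, offsets for GC content with transcript length, and leaving out each library. Promoter sequences came from RefSeq (GRCh38.p14).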

Additional observations from a re-analysis of the deposited data

Results flagged for a closer look

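The change with A366 differed between the lines, by the interaction test of edgeR, for PSPH (-1.18, Mel92.1 minus MP41 on the log2 scale), PYCR1 (-0.79), MTHFD2 (-0.70), PSAT1 (-0.68) and SHMT2 (-0.67). The change with UNC0642 passed the same test for PHGDH (2.04), which had 4 to 39 counts in the Mel92.1 libraries compared and no longer passed without DMSO replicate 2 (adjusted p = 0.0650), DMSO replicate 3 (0.0561) or UNC0642 replicate 3 (0.113) of that line, so that it is given as a value only. Groups of 3 replicates were too small to single out a library by its distance from the others.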

How the results depend on the processing

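The number of enzyme genes past the threshold moved by over 1.5 times in few settings. For UNC0642 in Mel92.1, 1 gene passed instead of 0 with DESeq2 and with voom weights (PSAT1 in both) and with all 18 libraries in 1 fit (PHGDH). For A366 in Mel92.1, voom weights gave 6 instead of 0. These include PHGDH, which passed the expression filter only through the inhibitor libraries. With the libraries as labelled, A366 in MP41 gave 3 against DMSO and 3 against UNC0642 instead of 8, and the line difference for UNC0642 gave 0 instead of 1, as it did with voom weights. The line difference for A366 gave 3 instead of 5 with the GC and length offset, without and with the replicate block. Without 1 library at a time, the counts were 7 to 8 for A366 against DMSO and against UNC0642 in MP41, 5 for the line difference in A366, 7 between the lines and 0 to 1 for the line difference in UNC0642.

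Reversed estimates were as follows. As labelled, A366 in Mel92.1 gave PSPH 0.521, SHMT1 0.496, SHMT2 0.324, MTHFD2 0.378 and MTHFD1L -0.175, and A366 in MP41 gave PHGDH -0.801, MTHFD2 -0.044 and ALDH18A1 0.448. With the GC and length offset, UNC0642 in Mel92.1 gave SHMT2 0.088, MTHFD1L 0.053, PYCR1 0.068 and ALDH18A1 0.043, and with the replicate block added 0.084, 0.050, 0.058 and 0.037. ALDH1L2 with A366 in Mel92.1 gave 0.012 without the 4 libraries and 0.294 with voom weights. Without 1 library, it ranged from -0.405 to 0.013, SHMT1 with A366 in Mel92.1 from -0.103 to 0.008, and ALDH18A1 with UNC0642 in MP41 from -0.043 to 0.000, none of them past the threshold; ALDH18A1 with A366 in MP41 lost its call without DMSO replicate 3 (adjusted p = 0.0518). The cause was not tested.

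Replicate numbers did not pair the libraries: same-numbered libraries correlated at -0.195 to 0.225 in Mel92.1 (1 of 9 pairs over 0.1) and at -0.080 to 0.080 in MP41 (0 of 9). With the replicate block, 8 genes passed for A366 in MP41, as without it, and 5 for the line difference. PHGDH at 4 to 39 counts in Mel92.1 and ALDH1L2 at 2 to 11 in MP41 limit what could be detected for them.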
